A study of Mus musculus with 12 samples.

Results

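Elastic fibre and fibulin genes were followed as one group of 10 genes, namely Eln, Fbn1, Fbln1, Fbln2, Fbln5, Efemp2, Emilin1, Mfap2, Mfap5 and Ltbp1. They were chosen by symbol from the 48321 genes of the deposited matrix, and all 10 were found. The libraries came from brown adipocytes differentiated from preadipocytes of the interscapular brown fat of a wildtype C57BL/6J newborn mouse, immortalized with SV40 large T antigen. One stable line carried the empty pLEX vector and the other carried pLEX with tSema4B, a Flag-tagged truncated form of mouse semaphorin 4B that stands for the part of the protein released by the protease ADAM17. After 8 days of differentiation, which began with isobutylmethylxanthine, rosiglitazone, dexamethasone, insulin and triiodothyronine in both lines, each line was incubated for 6 h in serum-free medium with bovine serum albumin, either without further addition (unstimulated) or with 2 μM norepinephrine (NE), the agonist of the beta-adrenergic receptors of brown fat. This gave 4 groups of 3 libraries, which the series text calls technical replicates, so the p-values below measure the spread between these libraries. With 1 line per construct, an effect of tSema4B and a difference between the lines cannot be told apart.

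Elastic fibres give tissues recoil. They have a core of crosslinked elastin, whose monomer tropoelastin is encoded by Eln, laid on a scaffold of microfibrils built from fibrillins and the microfibril-associated proteins MFAP2 and MFAP5. Fibulins and EMILIN1 sit where elastin meets the microfibrils, and fibulin-4 (Efemp2) and fibulin-5 (Fbln5) are needed to assemble the fibre and to bring lysyl oxidases to it. LTBP1 tethers latent TGF-beta to fibrillin microfibrils. In fat depots these proteins are made mainly by preadipocytes and other stromal cells.

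Values are normalized counts, that is, reads per gene divided by the size factor of the library. Reads counted on genes ranged from 2841941 to 3682634 in unstimulated vector libraries, from 2000780 to 2541747 in unstimulated tSema4B libraries, from 4739777 to 5409583 in NE-treated vector libraries and from 2307190 to 3144946 in NE-treated tSema4B libraries. The transduced gene, Sema4b, lay between 110786 and 124008 in unstimulated vector libraries and between 258257 and 316850 in unstimulated tSema4B libraries, and between 65472 and 81754 and between 208760 and 270694 after NE. Every tSema4B library was above every vector library, the direction the labels give. Sema4b ranked 1 among all genes in every tSema4B library, but it also ranked 2 or 3 in every library labelled empty vector, above the adipocyte gene Fabp4 (22910 to 24643 in those without stimulation). The label of an empty vector does not account for so high a level, and its source was not tested. Below, vector stands for the libraries labelled so, and each direction between the lines rests on that label. Of the 10 genes, 9 passed the filter of at least 10 normalized counts in at least 3 libraries, as did 11998 genes in all, and Mfap5 did not. A gene passed the test when its adjusted p was 0.05 or less (limma on log2(normalized count + 1), two-sided, Benjamini-Hochberg over the 11998 genes), and fold changes on this scale understate the change of low genes. With 3 libraries a group, exact permutation of the labels reaches a p of 0.1 at the lowest, and the adjusted p-values therefore depend on limma's pooled variance.

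The first question was whether tSema4B and vector cells differed in these genes. They did, in one direction. The paper had already named Fbln1 and Fbln2 (unstimulated) and Fbn1 (after NE) as higher in tSema4B in these data. The genes were chosen with earlier results known, so the counts describe this group and are no independent support. In unstimulated cells 6 of the 9 tested genes were higher in tSema4B (Fbln1, Fbln2, Efemp2, Emilin1, Mfap2 and Ltbp1) and 0 were lower, while over all genes tested 5.64% passed as higher and 7.39% as lower. After NE, 8 of the 9 were higher (the same 6 with Fbn1 and Fbln5) and 0 were lower, against 9.79% and 11.2% of all genes. Beside these counts of 0 lower, 0 of the genes were lower at an unadjusted p under 0.05, and edgeR and DESeq2 on the recovered reads also gave 0. The median log2 fold change of the 9 genes was 0.49 in unstimulated cells and 0.80 after NE, where the median of all genes tested was -0.0025 and -0.010. In both comparisons Fbln1 and Mfap2, that is, 2 of the 9, also reached 1 on the log2 scale, where 1.11% of all genes passed as higher with such a fold in unstimulated cells and 2.03% after NE. The count in unstimulated cells was 3 without vector unstimulated replicate 1 (Fbln1, Fbln2 and Mfap2) and 3 without vector unstimulated replicate 2 (Fbln1, Fbln2 and Emilin1).

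**Figure D1:**
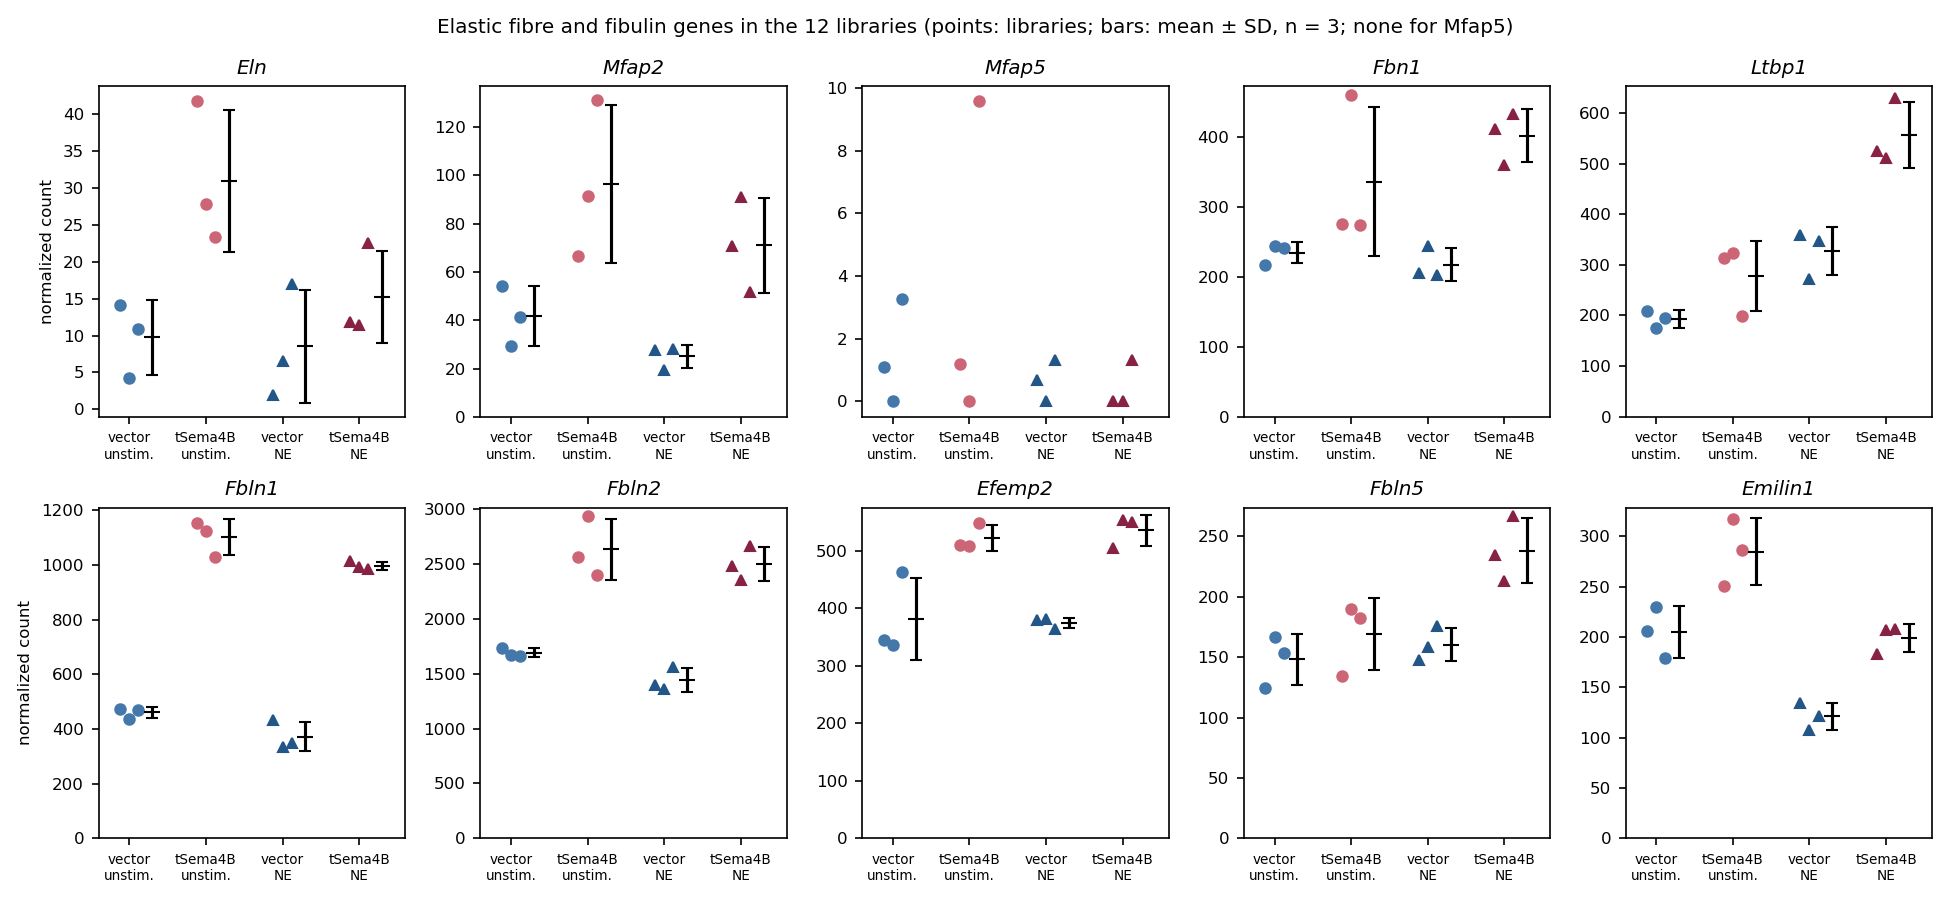
Normalized counts (y axis) of the 10 genes in the 12 libraries, by group (x axis), with points for libraries and bars for the mean and SD of 3 libraries (no bar for Mfap5). Fbln1 and Fbln2 sit higher in every tSema4B library than in any vector library, Ltbp1 rises with NE in both lines, and Emilin1 falls.

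Of the core and microfibril genes, Eln was near the limit of detection. Eln (chr5:134702593-134747323, minus strand, GRCm38) had 14.1, 4.20 and 10.9 normalized counts in the unstimulated vector libraries and 41.7, 27.8 and 23.3 in the tSema4B libraries, resting on 5 to 13 and 17 to 35 reads. All 3 tSema4B values lay above all 3 vector values, but the difference did not pass the test (log2 fold change 1.67 ± 0.60 SE, 95% confidence interval 0.43 to 2.90, adjusted p = 0.0696). Over 23 alternatives the log2 fold change ran from 1.06 to 2.04 and the adjusted p from 0.0241 to 0.279, the highest without vector unstimulated replicate 2. Eln passed under 4 of them, namely a pseudocount of 10 (adjusted p = 0.0241), only the groups compared (0.0384), the fit without vector NE replicate 1 (0.0423) and reads thinned to the shallowest library (0.0259). After NE, Eln had 2.02, 6.52 and 17.0 in vector and 11.8, 11.4 and 22.5 in tSema4B, and the groups overlapped (log2 fold change 1.06 ± 0.60 SE, interval -0.18 to 2.30, adjusted p = 0.226).

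Mfap2 (chr4:141010418-141015984, plus strand), which encodes the small glycoprotein MAGP1 of microfibrils, rested on 33 to 96 reads per library. Its unstimulated values were 54.3, 29.4 and 41.4 in vector and 66.7, 91.3 and 131 in tSema4B. Every tSema4B library was above every vector library, with a ratio of means of 2.31 (log2 fold change 1.18 ± 0.31 SE, limma adjusted p = 0.0127). This adjusted p was 0.0832 without vector unstimulated replicate 2 and 0.0791 without tSema4B unstimulated replicate 3. After NE, Mfap2 had 27.5, 19.6 and 28.2 in vector and 70.8, 90.9 and 51.5 in tSema4B, again without overlap and with a ratio of means of 2.83 (log2 fold change 1.45 ± 0.31 SE, limma adjusted p = 0.00181). Mfap5 (chr6:122505845-122529290, plus strand), its relative MAGP2, had 0 to 7 reads in each of the 12 libraries and was not tested. With 3 reads or fewer in 11 of them, and 7 in tSema4B unstimulated replicate 3, no difference in Mfap5 was detectable at this depth.

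Fbn1 (chr2:125300594-125507993, minus strand) encodes fibrillin-1, the main structural protein of microfibrils. It had 217, 245 and 242 in vector cells without stimulation and 275, 459 and 274 in unstimulated tSema4B cells. The 3 tSema4B values were above the vector values, led by replicate 2, but the difference did not pass (log2 fold change 0.48 ± 0.16 SE, limma adjusted p = 0.0592). The call turned on single libraries and on the processing. Without tSema4B unstimulated replicate 2, the highest, the log2 fold change was 0.23 (adjusted p = 0.349), while without replicate 1 or 3 of that group it was 0.60 in both cases (adjusted p = 0.0329 and 0.0286). On the recovered reads Fbn1 passed with edgeR (adjusted p = 0.0466) and DESeq2 (adjusted p = 0.0309), and it passed with a filter at 50 normalized counts (0.0423) and with the same total over all genes (0.0416). After NE the vector libraries had 205, 245 and 202 and the tSema4B libraries 412, 359.8 and 433. Fbn1 was then higher in tSema4B by 0.88 on the log2 scale (SE 0.16, limma adjusted p = 4.86e-04), a ratio of means of 1.85. A share of 20.1% of its exon bases overlaps Gm9913 on the other strand, and Nextera libraries do not mark the strand, so reads there could come from either gene.

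Ltbp1 (chr17:75005568-75392512, plus strand) had 210, 175 and 196 in vector cells without stimulation and 313, 323 and 199 in tSema4B cells. The third tSema4B library lay inside the vector range. The difference passed narrowly (log2 fold change 0.49 ± 0.16 SE, limma adjusted p = 0.0498) and was lost when any one of 9 libraries was left out, with an adjusted p of up to 0.202 (without tSema4B unstimulated replicate 2). It was also lost with a pseudocount of 0.5 (0.0527), no filter (0.101), the same total over nuclear genes (0.0998), only the groups compared (0.0865), the replicate block (0.0572) and reads thinned to the shallowest library, which was chosen after seeing the data (0.0688), so that the call for Ltbp1 failed under 15 of 24 alternatives. After NE the groups did not overlap, at 359, 272 and 348 in vector and 525, 511 and 630.3 in tSema4B (log2 fold change 0.77 ± 0.16 SE, limma adjusted p = 0.00171).

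Among the fibulins, Fbln1 and Fbln2 had the smallest adjusted p of the 9 genes in both comparisons between the lines. Fbln1 (chr15:85205949-85286535, plus strand) encodes fibulin-1, a glycoprotein found in elastic fibres and basement membranes. Its unstimulated values were 475, 438 and 469 in vector cells (mean 461 ± 19.8 SD, n = 3) and 1154, 1125 and 1028 in tSema4B cells (mean 1102 ± 65.7). All tSema4B values were above all vector values, with a ratio of means of 2.39 (log2 fold change 1.26 ± 0.10 SE, limma adjusted p = 1.06e-08). After NE, Fbln1 had 432, 334 and 349 in vector and 1014, 992 and 986 in tSema4B. The ratio was 2.68 (log2 fold change 1.43 ± 0.10 SE, limma adjusted p = 1.13e-09), and both calls held under all 24 alternatives.

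Fbln2 (chr6:91212455-91272540, plus strand) encodes fibulin-2, which joins elastin to fibrillin and to other matrix proteins. It had 1736, 1675 and 1659 in vector cells without stimulation and 2564, 2934 and 2399 in unstimulated tSema4B cells. Fbln2 was higher in tSema4B by 0.63 on the log2 scale (SE 0.083, limma adjusted p = 1.07e-05), a ratio of means of 1.56. After NE the values were 1394, 1360.3 and 1564 in vector and 2480.3, 2352 and 2661 in tSema4B, with no overlap and a ratio of 1.74 (log2 fold change 0.80 ± 0.083 SE, limma adjusted p = 4.75e-07).

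Efemp2 (chr19:5473954-5482517, plus strand) had 344, 336 and 463 in vector cells without stimulation and 510.1, 509 and 548 in tSema4B cells. It was higher in tSema4B by 0.47 (SE 0.12, limma adjusted p = 0.00935), although without vector unstimulated replicate 1 or 2 the adjusted p was 0.0630 and 0.0676. After NE, Efemp2 had 379, 381 and 365 in vector and 505, 553 and 549.7 in tSema4B (log2 fold change 0.51 ± 0.12 SE, limma adjusted p = 0.00319). The ratios of means were 1.37 and 1.43. The other assembly factor is Fbln5 (chr12:101746565-101819055, minus strand). It had 125, 166 and 154 in vector cells without stimulation and 135, 190.3 and 182 in unstimulated tSema4B cells, so the groups overlapped, and the interval of the difference ran from -0.17 to 0.53 (log2 fold change 0.18 ± 0.17 SE, limma adjusted p = 0.542). After NE it had 148, 158 and 175 in vector and 235, 213 and 267 in tSema4B, and the difference passed (log2 fold change 0.56 ± 0.17 SE, limma adjusted p = 0.0185). That adjusted p was 0.0773 without vector NE replicate 1, 0.0562 without vector NE replicate 2 and 0.0818 without tSema4B NE replicate 3.

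Emilin1 (chr5:30913402-30921277, plus strand) encodes a glycoprotein of the elastin surface that also restrains the processing of TGF-beta. It had 206, 229.5 and 179 in vector cells without stimulation and 250.3, 317 and 286 in tSema4B cells. The groups did not overlap and the difference passed (log2 fold change 0.47 ± 0.15 SE, limma adjusted p = 0.0401), but it was lost when any one of 5 libraries was left out, with an adjusted p of up to 0.163 (without vector unstimulated replicate 3). The Emilin1 call was also lost with no filter (adjusted p = 0.0597), the same total over nuclear genes (0.0916), the replicate block (0.0533) and thinned reads (0.0559). After NE, Emilin1 had 134, 108 and 121 in vector and 183, 206 and 207 in tSema4B, a larger ratio of means of 1.64 (log2 fold change 0.72 ± 0.15 SE, limma adjusted p = 0.00156). Counted over the group, every tSema4B library was above every vector library for 7 of the 9 tested genes in unstimulated cells (not Fbln5 and Ltbp1) and for 8 of 9 after NE (not Eln). Among all genes tested this held for 14.2% and 17.9%.

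**Figure D2:**
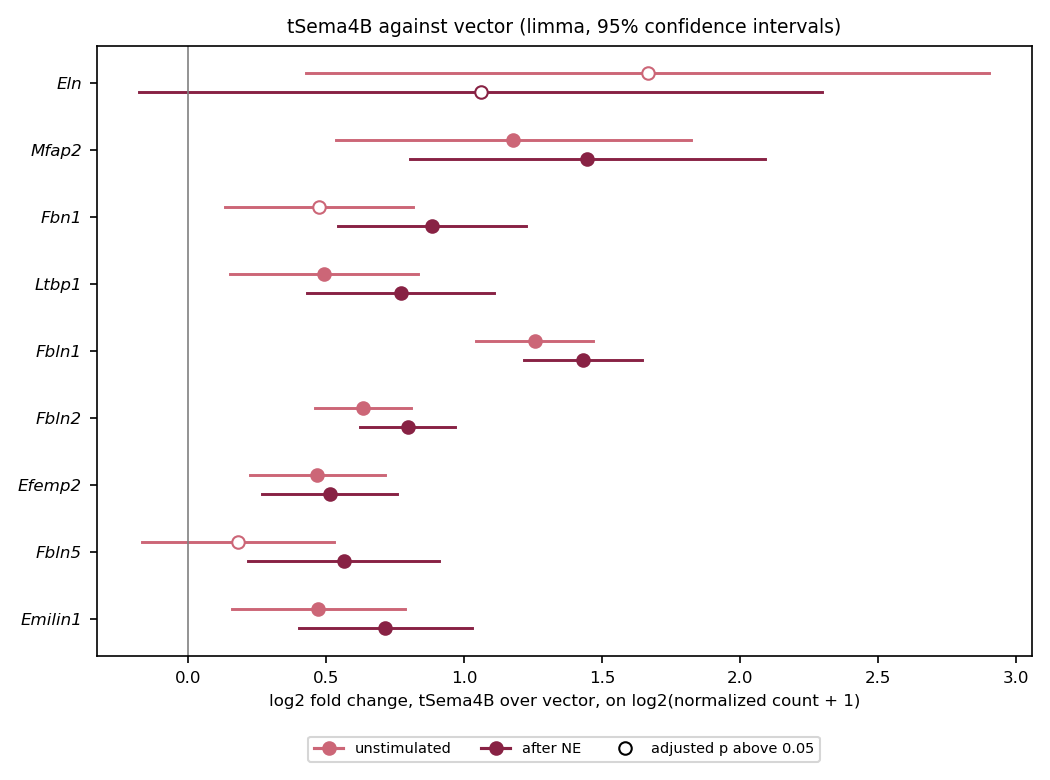
Log2 fold change of tSema4B over vector (x axis) for the 9 tested genes (y axis) in unstimulated and NE-treated cells. Lines are 95% confidence intervals, and filled points passed the test at an adjusted p of 0.05 or less. All 18 points lie above 0, and 14 of them are filled.

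The next question was how NE changed these genes in each line. Most did not pass, and the 2 clearest responses went in opposite directions. Ltbp1 was the one gene that rose, from a mean of 194 ± 17.5 to 326 ± 47.4 in vector cells and from 278 ± 69.4 to 556 ± 65.0 in tSema4B cells (SD, n = 3). All NE libraries were above all unstimulated libraries of the same line. The log2 fold change was 0.74 in vector cells (SE 0.16, limma adjusted p = 0.00433) and 1.02 in tSema4B cells (SE 0.16, limma adjusted p = 3.40e-04), ratios of means of 1.69 and 2.00, and both calls held under all 24 alternatives to the fit at the same threshold. Among all genes tested, 6.82% rose with NE in vector cells and 3.68% in tSema4B cells.

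Emilin1 fell. Its mean went from 205 ± 25.5 to 121 ± 13.3 in vector cells and from 285 ± 33.4 to 199 ± 13.6 in tSema4B cells, with no overlap in either line. The log2 fold change was -0.75 in vector cells (SE 0.15, limma adjusted p = 0.00207), a call that held under the same 24 alternatives, and -0.51 in tSema4B cells (SE 0.15, limma adjusted p = 0.0464). In tSema4B cells the call was lost when any one of 9 libraries was left out, with an adjusted p of up to 0.157 (without tSema4B unstimulated replicate 2), and in all under 15 of 24 alternatives. The others were no filter (adjusted p = 0.0704), the same total over all genes (0.0586) or nuclear genes (0.0528), only the groups compared (0.0964), the replicate block (0.0619) and thinned reads (0.0556). In vector cells Fbln1 also fell, by 0.32 on the log2 scale (SE 0.10, limma adjusted p = 0.0464), and this call was lost without any one of 8 libraries, with an adjusted p of up to 0.210 (without vector NE replicate 2). The Fbln1 call was also lost with no filter (adjusted p = 0.0909), edgeR (0.0521) and only the groups compared (0.0586), which makes 11 of 24 alternatives. So 2 of the 9 genes fell in vector cells and 1 in tSema4B cells, where 4.78% and 2.58% of all genes tested did.

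The remaining genes gave values that did not pass. For Fbln2 in vector cells all NE libraries lay below all unstimulated ones, with a log2 fold change of -0.23 (interval -0.41 to -0.061, adjusted p = 0.0746). Fbln2 did pass there under 5 of 24 alternatives, namely the same total over all genes (adjusted p = 0.0269) or nuclear genes (0.0435), quantile normalization (0.0161), only the groups compared (0.0430) and the fit without tSema4B unstimulated replicate 2 (0.0465). In tSema4B cells Fbln2 overlapped between conditions (-0.072, interval -0.25 to 0.10, adjusted p = 0.698). Mfap2 was likewise lower in each NE-treated vector library than in any unstimulated one, at -0.69 (interval -1.33 to -0.044, adjusted p = 0.175). In tSema4B cells Mfap2 overlapped between conditions (-0.42, adjusted p = 0.496). Fbln5 had higher values in each NE-treated tSema4B library than in any unstimulated one (log2 fold change 0.50, interval 0.16 to 0.85, adjusted p = 0.0783), and 0.12 in vector cells (adjusted p = 0.733). Eln in tSema4B cells was lower in each NE library (interval -2.24 to 0.23 on the log2 scale, adjusted p = 0.371). Efemp2 was nearly level, with -0.0084 in vector cells (interval -0.25 to 0.24) and 0.037 in tSema4B cells (interval -0.21 to 0.28). Fbn1 had -0.11 in vector cells (adjusted p = 0.744) and 0.30 in tSema4B cells (adjusted p = 0.328), where it passed without tSema4B unstimulated replicate 2 (0.54, adjusted p = 0.0273).

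**Figure D3:**
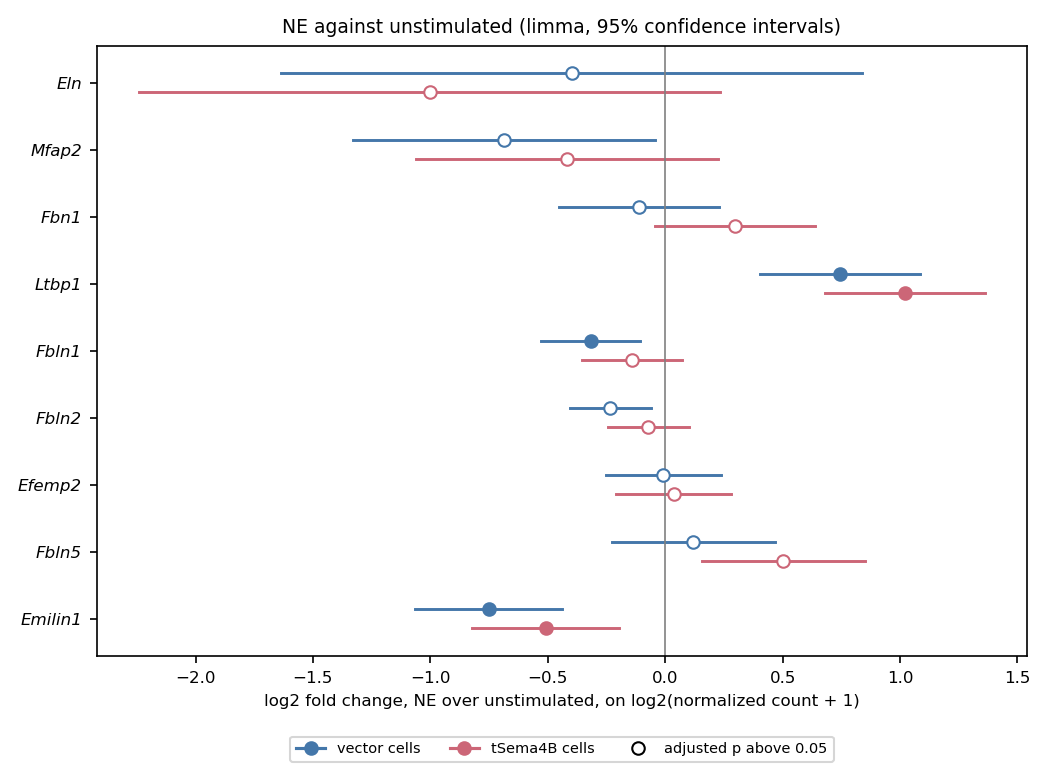
Log2 fold change of NE over unstimulated (x axis) for the 9 tested genes (y axis) in vector and tSema4B cells. Lines are 95% confidence intervals, and filled points passed the test. Ltbp1 is filled above 0 in both lines, Emilin1 below 0 in both, and Fbln1 below 0 in vector cells.

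Whether the NE response differed between the lines was tested with an interaction term, and 0 of the 9 genes passed (adjusted p from 0.574 to 0.958). At an unadjusted p under 0.05 the count was also 0, and so it was with edgeR and DESeq2. The term was above 0 for 8 of the 9 genes, with a median of 0.24, where the median of all genes tested was 0.0076. The intervals leave room for sizeable differences, such as -0.072 to 0.89 for Fbn1, -0.11 to 0.87 for Fbln5 and -0.20 to 0.76 for Ltbp1, so that Fbn1 and Fbln5, which passed between lines only after NE, were not shown to respond differently. Of all genes tested, 0.025% (3 genes) passed as higher and 0% as lower, with 602 and 625 at an unadjusted p under 0.05, and DESeq2 gave 34 and 67 and edgeR 3 and 1.

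To set the sequence beside these values, the bases before the start sites were read from RefSeq (GRCm38.p6), where 8 of the 10 genes had at least one window (Eln and Mfap5 are named only). The 250 bases upstream were searched on both strands for the cAMP response element (TGACGTCA), which binds CREB family factors activated downstream of beta-adrenergic receptors, for its half-site (TGACG, also contained in the full element), for the AP-1 site (TGANTCA), the GC box (GGGCGG), the TEAD site (GGAATG) and the TATA box (TATAAA). These starts are those of RefSeq, and for Fbn1, Emilin1 and Fbln2 all 250 bases lie inside exons of the GENCODE annotation used for positions here. Of the 8 genes, which have 14 windows, only Ltbp1 held the full element, at position -73 from the start, as did 1.77% of 27025 genes and 1.55% of their 32851 windows. The half-site was found in Ltbp1 and Fbln5 (19.8% of all genes), the GC box in 6 of the 8 genes, Fbn1 and Fbln2 among them (35.4%), the TEAD site in Mfap2 (14.4%), and the AP-1 site and the TATA box in 0 (7.82% and 14.3%). A match is a run of letters and not a shown binding site. The windows below are Ltbp1, which rose with NE, Fbln5, and Fbln1, which had the smallest adjusted p between the lines. Capitals mark the full element in Ltbp1 and the half-site in Fbln5, and Fbln1 has neither. Each of these genes has 2 windows, and window 1 is shown. In window 2, Ltbp1 has neither the full element nor the half-site, Fbln5 has a half-site, and Fbln1 has its GC box.
Ltbp1, chr17:75005279-75005528, plus strand: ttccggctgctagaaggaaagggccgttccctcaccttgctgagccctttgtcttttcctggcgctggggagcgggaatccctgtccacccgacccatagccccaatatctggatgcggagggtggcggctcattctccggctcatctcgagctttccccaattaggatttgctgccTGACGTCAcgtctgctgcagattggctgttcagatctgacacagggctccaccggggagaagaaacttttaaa
Fbln5, chr12:101819120-101819369, minus strand: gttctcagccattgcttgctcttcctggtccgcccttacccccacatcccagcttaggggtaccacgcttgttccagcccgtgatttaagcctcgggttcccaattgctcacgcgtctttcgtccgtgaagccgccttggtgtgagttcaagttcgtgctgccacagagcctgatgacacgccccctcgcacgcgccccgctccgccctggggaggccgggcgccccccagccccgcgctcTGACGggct
Fbln1, chr15:85205699-85205948, plus strand: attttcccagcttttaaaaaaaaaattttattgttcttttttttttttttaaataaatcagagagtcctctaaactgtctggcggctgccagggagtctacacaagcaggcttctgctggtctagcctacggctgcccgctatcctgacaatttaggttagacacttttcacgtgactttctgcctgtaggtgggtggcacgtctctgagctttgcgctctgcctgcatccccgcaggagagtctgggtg

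Levels were compared between genes per kb of merged exon. Fbln2 was the most abundant of the 10 genes in all 4 groups, at 265 ± 6.43 normalized counts per kb in unstimulated vector cells, 413 ± 43.1 in unstimulated tSema4B cells, 226 ± 17.2 in NE-treated vector cells and 392 ± 24.4 in NE-treated tSema4B cells. Fbln1 and Efemp2 came next. In unstimulated vector cells they overlapped (105 ± 4.52 and 100.6 ± 18.7 per kb), and in NE-treated vector cells Efemp2 (99.0 ± 2.36) and Fbln1 (85.1 ± 12.1) overlapped as well. In tSema4B cells Fbln1 stood clear of Efemp2, at 252 ± 15.0 against 138 ± 5.81 unstimulated and 228 ± 3.45 against 141 ± 7.06 after NE. Emilin1, Mfap2, Fbln5, Fbn1 and Ltbp1 formed a middle band from 17.9 to 79.7 per kb, in which most neighbours overlapped. Eln, from 1.05 to 3.82 per kb, and Mfap5, at or under 1.00 on average, were lowest in each group.

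**Figure D4:**
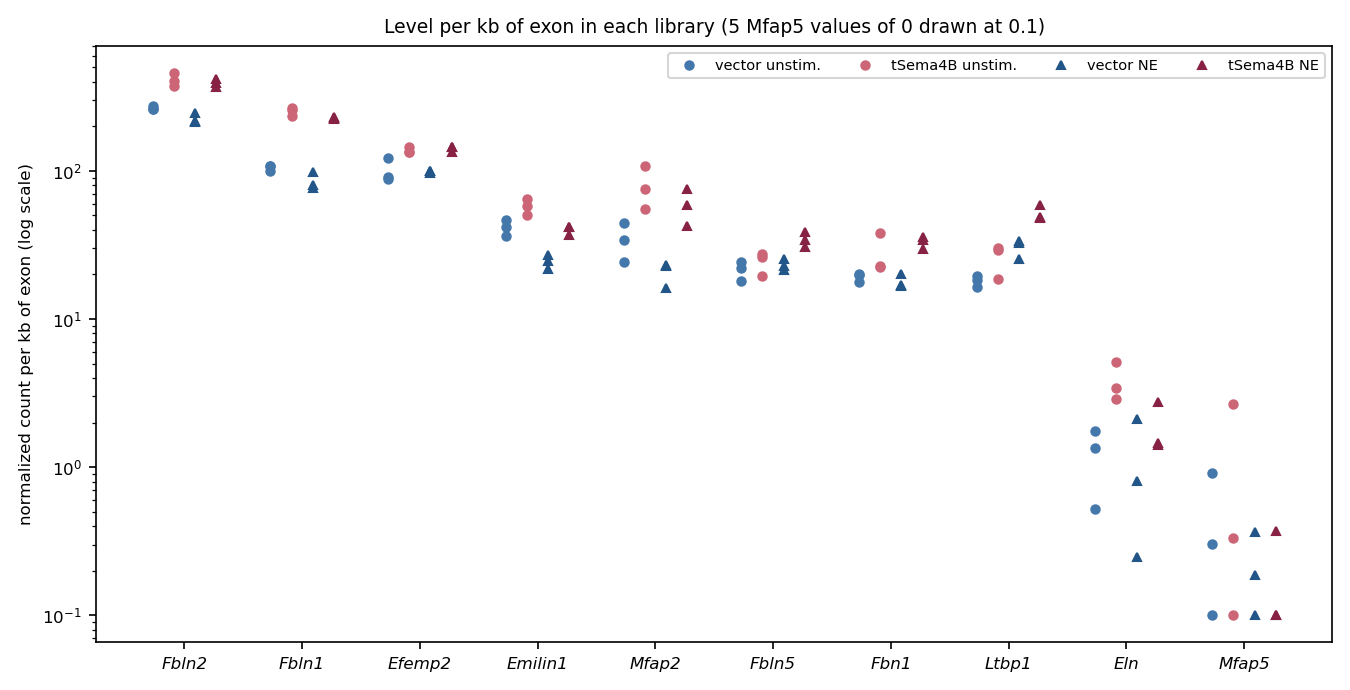
Normalized count per kb of merged exon (log scale, y axis) of the 10 genes (x axis, ordered by their level in unstimulated vector cells) in each of the 12 libraries. Fbln2 is highest in every group, and Eln and Mfap5 are lowest, with 5 Mfap5 values of 0 drawn at 0.1.

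Summed over the 10 genes, the level per kb was 608 ± 20.97 in vector cells without stimulation and 1024 ± 58.7 in unstimulated tSema4B cells, and 528 ± 26.4 and 983 ± 23.4 after NE. The ranges of tSema4B and vector did not overlap in either condition. Within this sum the share of Fbln1 lay between 17.2% and 17.6% in vector cells without stimulation and between 23.6% and 26.8% in unstimulated tSema4B cells, and the share of Fbln2 between 41.8% and 45.0% and between 37.8% and 42.2%. Ltbp1 went from 2.97% to 5.76% of the sum on average with NE in vector cells and from 2.54% to 5.28% in tSema4B cells, while Emilin1 went from 6.85% to 4.64% and from 5.62% to 4.10%.

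Across the 12 libraries, 35 of the 36 pairs of tested genes had a correlation above 0 on the log2 scale, with a median Pearson r of 0.61 and a range from -0.14 (Emilin1 and Ltbp1) to 0.97 (Fbln1 and Fbln2). Fbln2 was the closest partner of Fbln1, Fbn1 (0.85) and Eln (0.75), Fbln1 that of Efemp2 (0.89) and Mfap2 (0.88), Mfap2 that of Emilin1 (0.82), and Fbln5 that of Ltbp1 (0.71). Outside the group, the genes most like its mean z-score were Capza2 (0.99), Col5a2 (0.99), Ddost (0.98), Lipa (0.97) and Gas1 (0.97). The libraries fall into 4 groups and share the difference between lines, so these values are descriptions (n = 12 libraries).

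Other genes of elastic fibre biology came from 7 lists holding 50 genes, and 38 entered the test. Without stimulation 18 were higher in tSema4B and 0 lower (limma; 1 was lower at an unadjusted p under 0.05, and edgeR gave 0 lower and DESeq2 1, the protease gene Ctsk), and after NE 22 were higher and 1 lower. Of all genes tested, 5.64% were higher and 7.39% lower without stimulation, and 9.79% and 11.2% after NE. The median log2 fold change of the 38 genes was 0.49 and 0.53. Among the other fibulins and the EMILIN family, Fbln7 had the largest difference in unstimulated cells, at 10.1 to 31.6 normalized counts in vector cells without stimulation and 86.6 to 97.2 in tSema4B cells (log2 fold change 2.35 ± 0.37 SE, limma adjusted p = 1.05e-04). Emilin2 was higher by 0.41 (adjusted p = 0.0234) and, after NE, by 0.72 (adjusted p = 1.18e-04). Efemp1, which encodes fibulin-3, was the one gene counted as lower after NE (7.11 to 32.3 in vector cells and 0 to 1.32 in tSema4B cells). It passed the filter only through the vector libraries, where it was high. Its test is therefore not given, and the count of 1 lower gene is no support. Efemp1 had 1 read in all over the 3 NE-treated tSema4B libraries, so no fold is given either, and it overlapped in unstimulated cells. After NE, Fbln7 had a log2 fold change of 2.25 (limma adjusted p = 1.48e-04).

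Of the lysyl oxidases, which crosslink elastin and collagen, 2 of 5 were higher in unstimulated tSema4B cells, namely Loxl2 (log2 fold change 0.92, adjusted p = 0.00918) and Loxl1 (0.44, adjusted p = 0.00919), while Lox had 0.11 (adjusted p = 0.404). After NE 3 of 5 were higher, with Lox at 0.47 (adjusted p = 9.48e-05), Loxl3 at 0.60 (adjusted p = 0.0214) and Loxl1 at 0.34 (adjusted p = 0.0345). Beside these counts, 5.64% of all genes tested were higher in unstimulated tSema4B cells and 9.79% after NE.

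Of 5 tested proteases that can cut elastin or its microfibrils, 4 were higher in tSema4B in each condition. Over all genes tested, 5.64% were higher without stimulation and 9.79% after NE, the shares to set beside each count in this paragraph. In unstimulated cells these were led by Ctsl (log2 fold change 0.67, adjusted p = 1.69e-07), Mmp14 (0.87, adjusted p = 5.52e-05) and Mmp2 (0.83, adjusted p = 7.13e-05). Of the 3 TGF-beta ligands, Tgfb2 was higher by 1.49 (adjusted p = 1.30e-05) and Tgfb3 by 0.56 (adjusted p = 0.0407), and Tgfb1 had -0.14 (adjusted p = 0.920). After NE, Ctsl (0.67, adjusted p = 2.03e-07), Ctsb (0.39, adjusted p = 1.07e-04) and Mmp2 (0.74, adjusted p = 2.15e-04) led the proteases, and Tgfb2 was higher by 0.95 (adjusted p = 0.00154) and Tgfb3 by 0.68 (adjusted p = 0.00909). Among 8 binding partners 6 were higher in each condition, led in unstimulated cells by fibronectin (Fn1, 0.75, adjusted p = 2.33e-07), decorin (Dcn, 1.00, adjusted p = 2.73e-07) and biglycan (Bgn, 0.53, adjusted p = 2.78e-05), which also led after NE (0.92, 1.03 and 0.69).

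Of 11 tested microfibril, LTBP and ADAMTSL genes, 1 was higher in unstimulated tSema4B cells, a share near that of all genes (5.64%) (Adamtsl3, 1.93, adjusted p = 0.0223, at 2.17 to 10.9 against 17.0 to 30.1 normalized counts), beside Ltbp2 (0.67, adjusted p = 0.0520) and Adamtsl1 (1.12, adjusted p = 0.0525). After NE 4 were higher, where 9.79% of all genes tested were, with Adamtsl5 at 1.02 (adjusted p = 0.00125), Ltbp4 at 0.67 (adjusted p = 0.0141) and Adamts10 at 0.74 (adjusted p = 0.0147). Of the elastin receptor complex, 1 of 3 genes was higher in each condition, where 5.64% and 9.79% of all genes tested were. This gene was Ctsa, at 0.53 (adjusted p = 8.83e-04) and 0.42 (adjusted p = 0.00469), while Neu1 and Glb1 had 0.14 and 0.048 in unstimulated cells (adjusted p = 0.745 and 0.926).

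With NE, 2 of the 38 other genes rose and 8 fell in vector cells, and 3 rose and 6 fell in tSema4B cells, where 6.82% and 4.78% and then 3.68% and 2.58% of all genes did. The proteases Ctsl and Ctsb rose in both lines, by 0.39 and 0.31 in vector cells (adjusted p = 3.96e-04 and 0.00265) and by 0.39 and 0.40 in tSema4B cells (adjusted p = 6.05e-04 and 2.76e-04), and versican (Vcan) rose in tSema4B cells (0.50, adjusted p = 0.00625). Among the lysyl oxidases Loxl1 fell in both lines, with a log2 fold change of -0.62 in vector cells (adjusted p = 7.14e-04) and -0.73 in tSema4B cells (adjusted p = 1.97e-04), and Lox (-0.35, adjusted p = 0.00377) and Loxl3 (-0.56, adjusted p = 0.0489) fell in vector cells. Tgfb2 fell in both lines, with -0.74 (adjusted p = 0.0176) and -1.28 (adjusted p = 2.53e-04), as did Fn1, with -0.44 (adjusted p = 4.09e-04) and -0.27 (adjusted p = 0.0318). Bgn (-0.37, adjusted p = 0.00243), Adamts10 (-0.93, adjusted p = 0.00554) and Adamtsl5 (-0.65, adjusted p = 0.0477) fell in vector cells. In tSema4B cells Ltbp2 (-0.91, adjusted p = 0.0148) and Fbn2 (-1.19, adjusted p = 0.0433) fell. Efemp1 is also counted there, at 3 to 10 reads per library without NE and 0 to 1 with it. It passed the filter only through vector libraries, so its test is not given. The interaction test of these 38 genes gave 0 calls with limma, edgeR and DESeq2, with 2 above and 3 below 0 at an unadjusted p under 0.05 in limma.

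Markers of cell types moved with the lines. In bulk libraries fewer cells of a type and less RNA per cell cannot be told apart. The summed normalized count of 10 brown adipocyte markers lay between 32924 and 36560 in unstimulated vector libraries and between 5228 and 7842 in tSema4B libraries, and between 46468 and 58915 and between 9406 and 10776 after NE. Fabp4 made up most of this sum in vector cells (a mean of 24034 in a mean sum of 35080 unstimulated, and 40898 in 52940 after NE). Of the 9 tested, 8 were lower in tSema4B in both conditions, where 7.39% and 11.2% of all genes were. These include Cidea, which passed the filter only through the vector libraries, where it was high, so its call is no support. Dio2 had no read in any group and Ucp1 none in unstimulated tSema4B cells. The sum of 10 preadipocyte and fibroblast markers ran the other way, from 15920 to 16647 against 29892 to 33919 unstimulated and from 13019 to 15215 against 28021 to 29690 after NE, with 6 and 7 of 8 tested genes higher in tSema4B, where 5.64% and 9.79% of all genes were. Col1a1 and Col3a1 made up most of this sum (means of 5737 and 6905 in a mean sum of 16191 in unstimulated vector cells). The median log2 fold change of the 8 tested markers was 0.54 unstimulated and 0.83 after NE. The part of this shift in the elastic fibre genes was not tested. Of 5 tested smooth muscle markers, which mark another cell type that makes elastic fibres, 0 passed in unstimulated cells and 1 was lower in tSema4B after NE (Tagln, -0.80, adjusted p = 0.00680), and Myh11 had 3 reads or fewer in each library. Endothelial markers summed to between 4.34 and 21.9, with Kdr and Cldn5 at no read, and macrophage markers to at most 24.6, with Ptprc and Adgre1 at no read. Markers also moved with NE, beside the falls of Emilin1 and Fbln1. Of all genes tested, 6.82% rose and 4.78% fell in vector cells, and 3.68% rose and 2.58% fell in tSema4B cells. Of the 8 tested preadipocyte and fibroblast markers 4 fell in each line (Pdgfrb, Cd34, Dlk1 and Col1a1, from -0.56 for Pdgfrb to -0.30 for Col1a1 in vector cells) and 1 rose (Ly6a, by 0.87 and 1.07). Of the 5 smooth muscle markers 1 fell in vector cells (Acta2, -0.55, adjusted p = 0.0362) and 2 fell in tSema4B cells (Acta2, -0.75, adjusted p = 0.00785, and Tagln, -1.24, adjusted p = 4.22e-04). Of the 9 brown adipocyte markers 2 rose and 2 fell in vector cells and 4 rose in tSema4B cells. Among those that rose, Ucp1 passed the filter only with the NE-treated libraries, so its call is no support. The macrophage marker Csf1r had 0 to 2 reads per library without NE and 9 to 22 with it in both lines. It passed the filter only through the NE-treated libraries, so its test is not given. The part of these shifts in the response of the elastic fibre genes to NE was not tested.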

How the data were processed

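Single-end SMART-Seq2 libraries were made from 12 samples. Per the labels and the paper's methods, the authors aligned reads with STAR (version 2.7.9a in the submitters' processing notes), counted them per gene with HTSeq on mm10/GRCm38, and deposited a normalized signal per gene, that is, counts divided by DESeq2 size factors. The annotation, strand setting and treatment of multiply mapped reads are not given in the sources used here. Whole reads could be recovered from these values for 100% of entries (tolerance 0.01).

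Normalized counts were tested as log2(value + 1) with limma 3.58.1 (R 4.3.3), in one model of the 4 groups with variance trend, after a filter of at least 10 normalized counts in at least 3 libraries (11998 genes). All p-values are two-sided, with the Benjamini-Hochberg adjustment taken across every gene that passed the filter. Alternatives were pseudocounts of 0.5 and 10, no filter and a filter of 50, other scalings, edgeR 4.0.16 and DESeq2 1.42.0 on the recovered reads, only the groups compared, a replicate block and leaving out each library. Scripts were tested on simulated data. The genes and lists were chosen with earlier results of these data known. Other genes were named as the 3 with the smallest adjusted p per list and comparison, for NE against unstimulated only where they passed. Positions and exon lengths came from GENCODE M 21 and promoter windows from RefSeq. Libraries of 2000780 to 5409583 reads set the precision, which limits Eln and Mfap5.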

Additional observations from a re-analysis of the deposited data

How the results depend on the processing

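Of 1066 recomputed gene values, 984 kept their direction and side of the threshold, 57 lost the call, 16 gained it and 9 reversed; the cause was not tested. With a log2 threshold of 1 as well, the count of higher genes was 2 between lines in unstimulated cells, 2 after NE and 0 with NE in vector cells, and the count of lower genes with NE was 0 in each line. The count of lower genes with NE in vector cells was 1 without a filter and 1 with edgeR, and 3, with Fbln2 added, with the same total over all or nuclear genes and with quantile normalization. With only the groups compared it stayed at 2, with Fbln2 in place of Fbln1. In tSema4B cells the count was 0 without a filter, with the same total over all or over nuclear genes, with only the groups compared, with the replicate block and with reads thinned to the shallowest library, an alternative chosen after seeing the data. Leaving out one library gave 3 to 6 higher genes between lines in unstimulated cells, 1 to 3 lower with NE in vector cells, and 1 to 2 higher and 0 to 1 lower with NE in tSema4B cells.

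Values that reversed were near 0 or from low counts. With NE in vector cells, Eln ranged from -1.04 to 0.25 on leaving out one library and was 0.40 with thinned reads, and Efemp2 ranged from -0.091 to 0.14 and was 0.050 with thinned reads. With NE in tSema4B cells, Fbln2 ranged from -0.14 to 0.0086, and Efemp2 was -0.023 with quantile normalization. On leaving out one library, the interaction ranged from -1.25 to 0.035 for Eln and from -0.10 to 0.13 for Efemp2. Over 22 alternatives that of Eln ran from -1.35 to 0.035.

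Same-numbered libraries did not deviate together (correlations from -0.047 to 0.0282 over 18 pairs), so the numbers were not taken to pair the samples. With the replicate block, 4 genes were higher in unstimulated tSema4B cells instead of 6, 8 after NE, and with NE 1 rose and 2 fell in vector cells and 1 rose and 0 fell in tSema4B cells.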
